A study of Oryza sativa with 24 samples.

Results

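Of the 36099 genes counted in developing rice panicles, 179 were silent through stages 5, 6 and 7 and expressed at stage 8, when pollen matures. A gene was taken as silent where its mean was under 0.5 CPM (the count divided by the library's total count, times 1000000) at each of the 3 earlier stages, and as expressed where its stage 8 mean reached 5 CPM. Means were taken over both genotypes, and up to 200 genes with the highest stage 8 mean were to be kept, so all 179 were. The values that chose these genes are their own counts, so the difference between stage 8 and the earlier stages is given below as a description, with no test.

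The panicles came from rice (Oryza sativa indica, cultivar IR64). MT plants carried gene edits in tps2, tps3 and tps6 in the IR64 background, and WT plants were unedited IR64. Both genotypes were grown under the same chamber regime and sampled at stage 5 (pollen mother cells forming), stage 6 (their meiosis), stage 7 (pollen filling) and stage 8 (pollen maturation), with 3 biological replicates labelled per genotype and stage. The sources used here do not say how many independent edited lines were sampled. In 3 pairs of columns the MT and WT values were identical in every row (replicate 3 of stage 6, replicates 2 and 3 of stage 7). The choice of genes used each of these columns once, which left 21 columns, and the tests used none of them, which left 18 libraries. At stage 8 all 3 MT and 3 WT libraries were distinct.

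Pollen maturation is the last phase of male development, in which the grain stores transcripts and proteins that are used when the pollen tube grows. Transcripts that first appear at this phase are often called late pollen genes, and many known ones encode cell wall enzymes, cytoskeletal proteins and signalling proteins. Class II trehalose phosphate synthases, which the 3 edited genes encode, belong to the family that makes trehalose 6-phosphate, a signal of sucrose supply, and many class II members are thought to act as regulators rather than as enzymes. A panicle library mixes anthers with glumes, rachis and ovary. In such bulk tissue, fewer cells of a type and less RNA per cell cannot be told apart. The identifiers in the count table are not paired with gene names, so no gene is given a role here and markers of pollen or of other tissues were not checked.

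The libraries were of similar depth. Totals ran from 11398861 to 15860931 counts over the 18 libraries and from 11596245 to 13087188 at stage 8. At stage 8 the MT libraries stood apart from each other in the genes described here, replicates 1 and 2 high and replicate 3 low, and results that rest on replicate 3 are given with and without it. This order did not follow the number of genes detected. MT replicates 1, 2 and 3 held 25059, 22410 and 23894 genes with a count, and WT replicates 1, 2 and 3 held 25143, 24382 and 25119.

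The 179 genes were nearly absent before stage 8. Together they held 51 to 124 counts per library at stage 5, and 96 to 166 at stage 6. At stage 7 they held 188 counts in MT replicate 1, 193 and 217 in the columns that stand under both genotypes, and 729 in WT replicate 1. The median member had a mean of 0 CPM at stages 5 and 6 and of 0.116 CPM at stage 7, and 37 members had no count in any of the 15 earlier libraries. At stage 8 the same genes held 108919, 110205 and 5723 counts in MT replicates 1, 2 and 3, against 31326, 15846 and 17588 counts in WT replicates 1, 2 and 3.

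**Figure D1:**
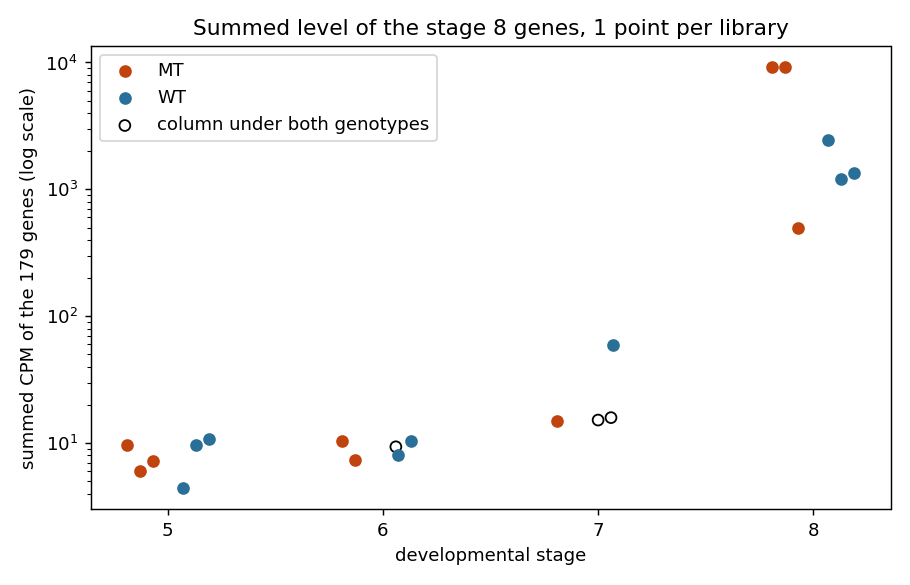
Summed CPM of the 179 genes in each library (log scale) by stage, with MT left of WT and open circles for columns that stand under both genotypes. Sums lay between 4.41 and 10.7 CPM at stages 5 and 6, and between 494 and 9211 CPM at stage 8, where the MT libraries lie on both sides of the WT libraries.

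Most of these genes were expressed at a moderate level, with a few far above the rest. Stage 8 means ran from 5.01 to 182 CPM with a median of 11.1 CPM. Of the 179 genes, 80 had a mean under 10 CPM, 80 had 10 to 50 CPM and 19 had more than 50 CPM. The 10 leading genes made up 29.0% of the summed stage 8 level and the 50 leading genes 67.5%. All 6 stage 8 libraries had a count for 135 members, and 92 members were at 1 CPM or more in each of them. For 46 members the stage 8 mean would have been under 5 CPM without their highest library.

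OsIR64_05g0024990 was the most abundant member. It had no count at stages 5 and 6, none in the 3 stage 7 columns under MT, and 10 counts (0.815 CPM) in the WT stage 7 library. At stage 8 it stood at 519, 325 and 22.3 CPM in MT replicates 1, 2 and 3, against 107, 55.7 and 62.9 CPM in the WT replicates. A pair of MT libraries was thus above every WT library and the third below every one.

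OsIR64_05g0010130, the next most abundant, had the same earlier profile, with 11 counts (0.897 CPM) in the WT stage 7 library as its only earlier counts. At stage 8 it stood at 312, 401 and 3.10 CPM in MT replicates 1, 2 and 3, against 102, 33.0 and 44.9 CPM in the WT replicates. MT replicates 1, 2 and 3 held 3689, 4821 and 36 counts of it, so the spread inside the MT group was wider than the distance between the groups.

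At the edges of the definition genes differed little. OsIR64_01g0034210 was just inside the stage 8 limit at 5.01 CPM, and OsIR64_07g0012420 was just outside at 5.00 CPM (under 5 before rounding). OsIR64_03g0028670 was just inside the limit for the earlier stages, with a highest earlier mean of 0.479 CPM, and OsIR64_04g0007730 was just outside at 0.503 CPM, with a stage 8 mean of 43.6 CPM.

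**Figure D2:**
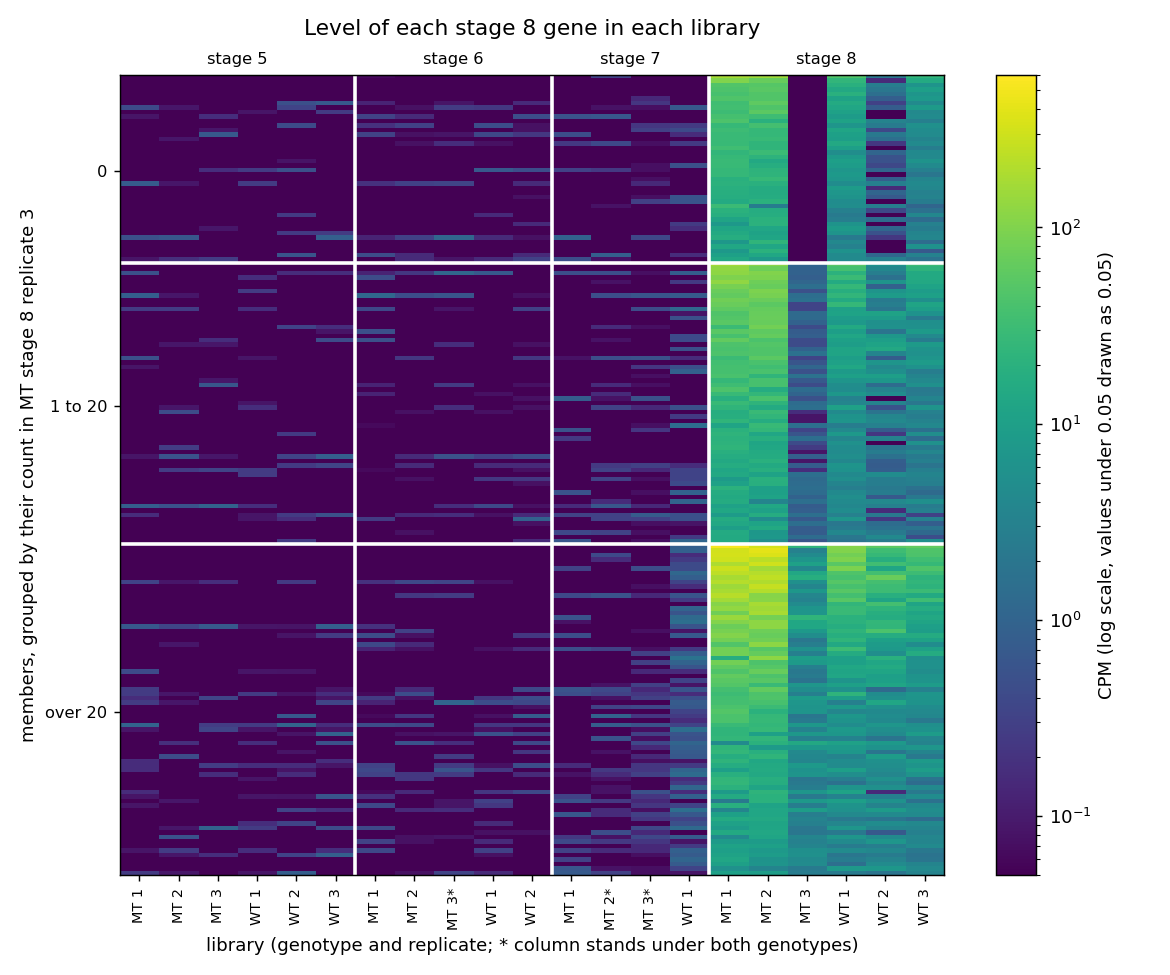
CPM of each of the 179 genes (rows) in each of the 21 columns used by the definition (log colour scale), with stages from left to right and MT left of WT within a stage. Rows are grouped by their count in MT stage 8 replicate 3. Of the 42 genes with 0 counts there, 39 are lower in WT stage 8 replicate 2 than in the other WT libraries. The WT library holds more counts of the members than any other stage 7 column, most of them in the bottom group of 74 genes.

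The genotypes were compared at stage 8, a contrast that the definition did not take but did not leave untouched either. No member passed the threshold. The definition used the stage 8 mean of both genotypes, and 85 of the 179 genes had a WT mean under 5 CPM and so passed through their MT values. Counts and medians over the members in this comparison therefore favour MT and are given as a description. The summed level was 6292 ± 5022 CPM in MT and 1672 ± 684 CPM in WT (SD, n = 3 each). The ratio of these means was 3.76, and the spread between MT replicates was larger than the difference. The fitted log2 difference (MT minus WT) was above 0 for 178 of the 179 genes, with a median of 1.81, against a median of 0.00 over all 25483 genes tested. In edgeR's quasi-likelihood test, adjusted by Benjamini-Hochberg over those 25483 genes, the smallest adjusted p of a member was 0.15. Over all genes the test called 1 gene higher and 1 lower in MT (0.00392% each). At an unadjusted p under 0.05, 26 members (14.5%) were higher and 0 lower in MT, against 6.94% and 7.05% of all genes tested.

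The genes with the smallest p in each direction show how the libraries lay. OsIR64_08g0008420 had 35.9, 62.0 and 5.09 CPM in MT replicates 1, 2 and 3, against 5.88, 1.30 and 3.06 CPM in WT replicates 1, 2 and 3. Its log2 difference was 3.28 (SE 0.90, edgeR adjusted p = 0.15). The lowest MT library lay inside the WT range.

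OsIR64_04g0010130 had 49.1, 20.1 and 6.73 CPM in MT replicates 1, 2 and 3, against 3.69, 4.36 and 4.13 CPM in the WT replicates, so the groups did not overlap. Its log2 difference was 2.55 (SE 0.66, edgeR adjusted p = 0.16). DESeq2's Wald test, with an adjusted p of 0.042, called it as the 1 member past the threshold, while the same test called 276 genes (1.08%) higher and 271 (1.06%) lower in MT among all genes.

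OsIR64_02g0022470 was the 1 member fitted lower in MT. It had 5.84, 3.50 and 2.41 CPM in MT replicates 1, 2 and 3, against 7.92, 7.34 and 4.13 CPM in the WT replicates. The groups overlapped, and the log2 difference was -0.82 (SE 0.68, edgeR adjusted p = 0.61). For the most abundant member, OsIR64_05g0024990, the log2 difference was 1.86 (SE 1.12, edgeR adjusted p = 0.52), and for OsIR64_05g0010130 it was 1.94 (SE 1.54, edgeR adjusted p = 0.63).

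Most of the 179 genes placed the stage 8 libraries in the same order. MT replicates 1 and 2 were both above every WT library for 168 members (93.9%), against 20.8% of all genes tested. The definition favours high MT values, as 85 members had a WT mean under 5 CPM. The shares of members given here are therefore a description, not a test. MT replicate 3 was below every WT library for 121 members (67.6%), within the WT range for 47 (26.3%) and above it for 11 (6.15%). Over all genes tested these shares were 21.5%, 46.6% and 31.9%. Both placements together, MT replicates 1 and 2 above and MT replicate 3 below all of WT, held for 116 members (64.8%), against 4.30% of all genes tested. The highest library was MT replicate 1 for 101 members, MT replicate 2 for 77 and WT replicate 1 for 1. The lowest was MT replicate 3 for 131 members, and WT replicate 2 or 3 for 20 and 21. No more than 9 members had all 3 MT libraries above all WT libraries (5.03%, against 8.73% of all genes tested), and 0 had all 3 below (against 5.70%). A single component took 88.2% of the variance of log2 levels (CPM + 0.5) of the members over the 6 libraries. Only the mean of each gene was removed, so differences between libraries that the members share enter this value. It was not computed for other genes and is not shown to be particular to the members.

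The height of MT replicates 1 and 2 was similar between genes, whereas the depth of MT replicate 3 varied widely. Relative to the WT mean, the mean of MT replicates 1 and 2 was 5.43-fold for the median member, with quartiles of 4.18-fold and 6.79-fold, and it exceeded 2-fold for 172 members. MT replicate 3 stood at 0.208 of the WT mean for the median member, with quartiles of 0.0245 and 0.570. In summed level, MT replicates 1 and 2 (9211 and 9172 CPM) lay 18.6-fold above MT replicate 3 (494 CPM). WT replicate 1 (2458 CPM) was above WT replicates 2 and 3 (1211 and 1347 CPM). The coefficient of variation between replicates was 79.8% in MT and 40.9% in WT.

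The absence of calls rested on MT replicate 3. Without that library the edgeR test called 81 of 179 members (45.3%) higher in MT and 0 lower, against 849 genes (3.35%) higher and 1159 (4.58%) lower among the 25322 genes tested. OsIR64_05g0024990 then had a log2 difference of 2.41 (SE 0.30, adjusted p = 0.0035 in edgeR). Leaving out any other single stage 8 library gave 0 members called, with a smallest adjusted p of a member from 0.22 to 0.41. The stage 8 mean that chose the genes weighs high libraries most, and MT replicates 1 and 2 were the highest. The share of members called without MT replicate 3 therefore favours MT and is a description, not a result on genotype. The same definition with the stage 8 mean of the 3 WT libraries, which uses no MT stage 8 value, gave 95 genes, 94 of them members. MT replicates 1 and 2 were above all WT libraries for 88 of these 95 (92.6%, against 20.8% of all genes tested). MT replicate 3 was below all of them for 75 (78.9%, against 21.5%). A choice on high WT values itself favours WT above MT, so the count of 75 is a description only. With MT replicate 3 kept, the edgeR test called 0 of the 95. Without it the test called 52 of the 95 (54.7%) higher in MT, against 3.35% of all genes tested. The library left out is the low one for most of these genes, and nearly all of them are members. This share is therefore a description as well, not a result on genotype. The choice on the WT libraries was made after the data were seen.

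The members were not equally low in MT replicate 3, and they formed a graded series. In that library 42 members had 0 counts, 63 had 1 to 20 and 74 had more than 20. A count of 0 there allows up to 3 counts, or 0.259 CPM, by counting error alone. These classes were set after the values were seen and carry no test. The classes also differed in level in the high libraries, where the mean member of each stood at 30.0, 37.9 and 75.2 CPM in MT replicate 1, and the 10 most abundant members were all in the class with more than 20 counts. Medians there were closer, at 26.8, 23.7 and 35.6 CPM in MT replicate 1 and 21.6, 25.3 and 28.2 CPM in MT replicate 2, in the order of the classes.

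WT replicate 2 followed the same grading, although it was not used to form the classes. The 42 genes with no count in MT replicate 3 had a median of 0.611 CPM in WT replicate 2, against 7.81 and 3.83 CPM in WT replicates 1 and 3. Their summed level in WT replicate 2 was 0.101 of that in WT replicate 1, while the ratio was 0.381 for the middle class and 0.649 for the 74 genes with more than 20 counts. WT replicate 3 showed no such grading, with ratios to WT replicate 1 of 0.499, 0.560 and 0.556. Of the 12 members with no count in WT replicate 2, 10 also had none in MT replicate 3. MT replicates 1 and 2 were alike in every class, with ratios of 0.980, 0.973 and 1.01.

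**Figure D3:**
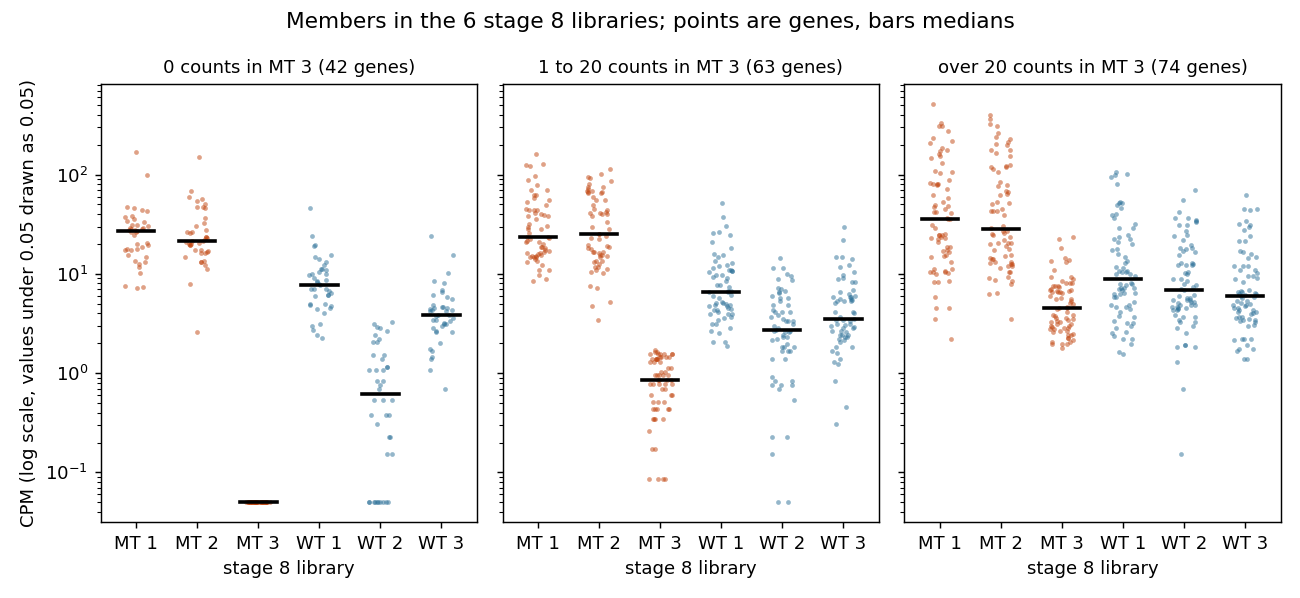
CPM of the members in the 6 stage 8 libraries (log scale), MT left of WT, in 3 panels by count in MT stage 8 replicate 3; points are genes and bars are medians. In WT replicate 2 the median lies at 0.611 CPM in the left panel and at 6.95 CPM in the right one, while the medians of WT replicate 1 lie at 7.81 and 8.79 CPM.

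Across the 179 genes, the profile of MT replicate 3 was closest to that of WT replicate 2. Pearson's r of log2 levels (CPM + 0.5) was 0.725 between these libraries, and 0.25 to 0.361 between MT replicate 3 and the other 4 stage 8 libraries. The other 4 libraries correlated with each other at 0.765 to 0.846, whatever their genotype. WT replicate 2 correlated with those 4 at 0.501 to 0.542, and so lay between them and MT replicate 3. The log2 ratio of MT replicate 3 to the mean of MT replicates 1 and 2 and that of WT replicate 2 to the mean of WT replicates 1 and 3 (CPM + 0.25) correlated at r = 0.590 over the 179 genes, and these ratios share no library. With the ratio of WT replicate 3 to WT replicate 1 in place of the second, r was 0.272. These correlations run across genes, which are not independent replicates, and low counts in both libraries enter them.

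**Figure D4:**
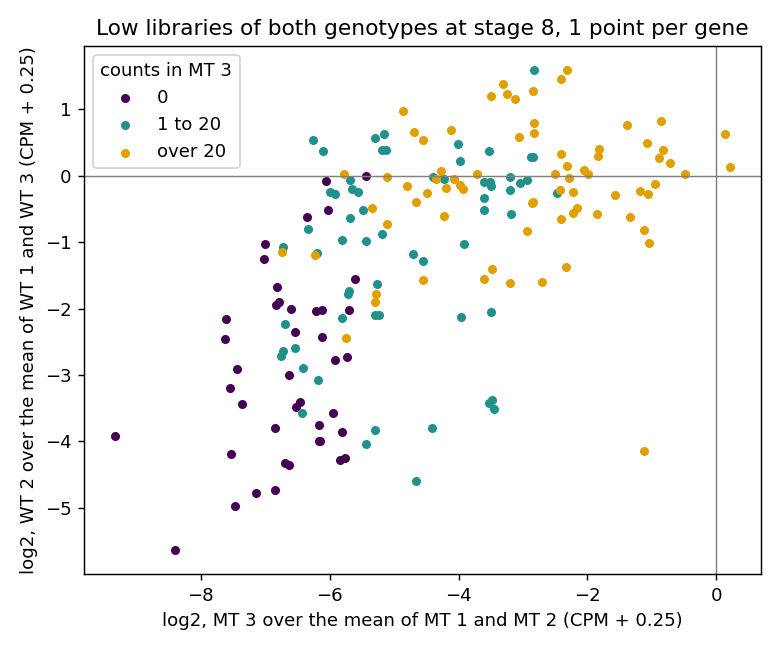
Each point is 1 of the 179 genes, with the log2 ratio of MT stage 8 replicate 3 to MT replicates 1 and 2 on the horizontal axis and that of WT replicate 2 to WT replicates 1 and 3 on the vertical axis (CPM + 0.25), coloured by count in MT replicate 3. The genes that are lowest on one axis are mostly low on the other (r = 0.590).

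At stage 7 the counts of members rose over the classes in every column. In the WT library, the share in the class with more than 20 counts in MT stage 8 replicate 3 lay between those of the stage 8 libraries. It was above the share of that class in MT replicates 1 and 2 and WT replicates 1 and 3 at stage 8. It was below the share in WT replicate 2 and MT replicate 3 at stage 8. In the other stage 7 columns the share was below that of every stage 8 library. The WT stage 7 library held 729 counts of the members (exact Poisson 95% interval 677 to 784, counting error only), or 59.4 CPM, and MT replicate 1 held 188 (162 to 217), or 14.9 CPM. The columns that stand under both genotypes had 15.2 and 15.9 CPM. With 1 library per genotype at this stage there is no replicate and no test, and the definition limits these values, since the stage 7 mean had to stay under 0.5 CPM over 4 columns. The WT library was above all 3 other columns for 87 members. The same count was not taken over all genes, so 87 is not shown to be particular to the members. In summed level the WT library was also the highest stage 7 column for both comparison lists described below. The 395 already expressed genes stood at 7108 CPM in it, against 1791 to 2953 CPM in the other columns. The 61 genes on from stage 7 stood at 2896 CPM, against 587 to 1218 CPM. A higher level in that library was thus not particular to the members. The 42, 63 and 74 genes of the classes held 48, 177 and 504 of its 729 counts, so 69.1% of the trace lay in the genes with more than 20 counts in MT stage 8 replicate 3. The same 74 genes made up 60.4% and 61.2% of the summed level in MT replicates 1 and 2 at stage 8, and 58.7% and 59.5% in WT replicates 1 and 3. They made up 77.3% in WT replicate 2, and 88.5% in MT replicate 3, whose counts formed the classes. The 42 genes with no count held 6.58% of the trace, against 13.7% and 16.3% of the summed level in MT and WT replicate 1 at stage 8. In WT replicate 2 at stage 8 these 42 genes made up 3.34%. Of those 74 genes 67 had a count in the WT stage 7 library, and of the 42 genes without counts in MT stage 8 replicate 3, 11 did. In MT stage 7 replicate 1 the classes held 38, 53 and 97 counts, with 6, 10 and 19 genes detected. The 74 genes thus held 51.6% of the members' counts there and 49.2% and 55.3% in the columns under both genotypes, below their share at stage 8.

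A minority of members departed from the common order. MT replicates 1 and 2 were not both above all WT libraries for 11 of the 179. Another 11, of which 9 were not among these, had MT replicate 3 above all WT libraries. OsIR64_04g0010130, described above, is one of those 9.

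Genes that were already expressed before stage 8 also had MT replicates 1 and 2 above and MT replicate 3 below the WT libraries in summed level, with smaller differences. For comparison, 395 genes had a stage 8 mean of at least 5 CPM that was at least 4-fold above an earlier highest mean of 0.5 CPM or more, and 61 genes were silent at stages 5 and 6 and reached 5 CPM at stage 7. The summed level of the 395 genes in MT replicate 3 was 0.469 of the mean of MT replicates 1 and 2, and that of the 61 genes was 0.595 of it, while for the 179 genes the ratio was 0.0537. The ratio of the MT to the WT mean at stage 8 was 1.37 for the 395 genes and 1.12 for the 61 genes, against 3.76 for the 179. MT replicates 1 and 2 were above and MT replicate 3 below all WT libraries for 25.3% of the 395 and 8.20% of the 61, against 64.8% of the 179. Without MT replicate 3, edgeR called 76 of the 395 higher in MT (19.2%) and 11 lower, and 2 of the 61 higher and 3 lower. These differences between lists are a description and were not tested.

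**Figure D5:**
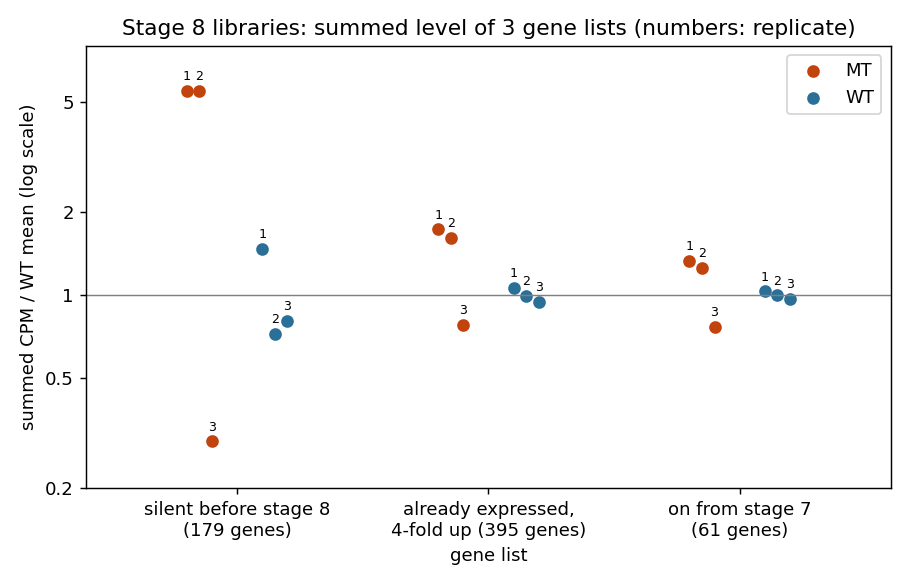
Summed CPM of 3 gene lists in each stage 8 library, divided by the WT mean of the list (log scale), with MT left of WT and the replicate number beside each point. The MT libraries spread 18.6-fold for the 179 genes silent before stage 8, 2.13-fold for the 395 already expressed genes and 1.68-fold for the 61 genes on from stage 7, taking the mean of MT replicates 1 and 2 over MT replicate 3.

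The genes were spread over the genome as far as the identifiers show it. The leading number of an identifier ran from 1 to 12, apart from 37 identifiers with no number and no member among them, and was read as given, with no genome to check it against. Members made up 0.496% of all identifiers. The highest share was in number 6, with 22 of 2924 genes (0.752%), and the lowest of the 12 numbers in number 9, with 2 of 2038 (0.0981%). Neighbouring rows of the table held members in 6 runs that included 16 genes (8.94%), the longest of 4 genes, against 7.34% of the 395 already expressed genes in such runs. Of these 16 genes 15 had MT replicates 1 and 2 above every WT library, and 14 also had MT replicate 3 below every one. The exception to the first count was OsIR64_02g0002120, a gene of the longest run named after its values were seen, with 30.4, 2.58 and 0 CPM in MT replicates 1, 2 and 3, against 4.94, 2.83 and 1.07 CPM in the WT replicates. Neighbouring genes can be near-identical copies that share reads, and the sources used here do not say how such reads were counted.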

How the data were processed

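RNA was sequenced as read pairs from 24 panicle samples. Per the series design text, the authors trimmed the reads, mapped them to the IR64 genome with STAR and deposited raw counts per gene from HTSeq-count on a high-confidence annotation. The submitters' processing notes list Trimmomatic 0.39 and kallisto. The sources used here give no strand setting or annotation version. The deposited counts were scaled here to CPM by column totals. Tests used the quasi-likelihood test of edgeR 4.0.16 (robust, TMM normalization, filterByExpr; R 4.3.3), fitted to 18 libraries in 8 groups with 10 residual degrees of freedom, which kept 25483 genes and all 179 members. The threshold was an adjusted p of 0.05. DESeq2 1.42.0 was an alternative. The procedure was also run on simulated counts. In those no library departed from its group as MT stage 8 replicate 3 does, so they do not cover that case. The replicates are labelled as biological, and whether they came from separate plants is not stated, so p-values measure the spread between these samples. The members, lists and rules were chosen with earlier results of these data known. Identifiers printed are the 2 most abundant members, those with the smallest p in each direction since none was called, and genes at the limits of the definition. The reference table of gene names belongs to another assembly and matched 0 of the identifiers. No sequence was used.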

Additional observations from a re-analysis of the deposited data

How the results depend on the processing

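The number of members called between the genotypes stayed at 0 with RLE size factors, without the low-count filter, with the 6 stage 8 libraries alone, with all 24 columns and with the replicate block (20 members at an unadjusted p under 0.05). DESeq2 called 1. Leaving out 1 stage 8 library gave 0 to 81 members, and the 81 came without MT replicate 3. Over all genes the count of 2 was 547 with DESeq2, 133 with all 24 columns and 0 with the stage 8 libraries alone, and leaving out 1 library gave 1 to 2008. The median log2 difference of members was 1.21 with the replicate block and 1.33 to 2.37 with 1 library left out, and the summed ratio was 2.89 to 5.50. Same-numbered replicates at stage 8 deviated together at r = 0.0298 to 0.0545, so the numbers were not taken as pairs. The definition gave 179 genes, 99 with a limit of 10 CPM at stage 8, and 148 to 200 with 1 stage 8 library left out. A limit of 0.25 CPM at the earlier stages gave 131 genes and a limit of 1 CPM gave 245. The 18 libraries used in the tests gave 158. Chosen after the data were seen, the WT mean gave 95, the MT mean 254 and the median of 6 libraries 117. None of the 5 members whose log2 difference is given reversed under these alternatives. The cause of these changes was not tested. With 3 libraries per genotype, the spread of MT limits what the comparison can show.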
